A study of Saccharomyces cerevisiae with 5 samples.

Results

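The genes described here are the hexose transporters HXT1 to HXT7, the galactose permease GAL2 and the glucose sensors SNF3 and RGT2 of budding yeast, Saccharomyces cerevisiae. They were taken by systematic name, so that 10 of the 6388 genes on the array belong to the set. The strains were bdf1Δ+HAL2, bdf1Δhda1Δ, bdf1Δ and the laboratory strain W303, and NaCl at 0.5 mol/L had been present for 45 min in each culture. HAL2 is overexpressed in bdf1Δ+HAL2 per the series title, and how is not given in the sources used here. BDF1, which codes for a bromodomain protein of transcription, is deleted in 3 of the 4 strains, and bdf1Δhda1Δ also lacks the histone deacetylase gene HDA1. All values are for salt-treated cells, since no culture without salt was analysed here. On each array the labelled material of 2 strains was hybridised together, 1 in Cy5 and 1 in Cy3.

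Hexose transporters carry glucose and fructose across the plasma membrane by facilitated diffusion, and yeast adjusts which of them it makes to the sugar supply. Hxt1 and Hxt3 are low-affinity carriers used when glucose is abundant, whereas Hxt2, Hxt4, Hxt6 and Hxt7 have higher affinity and serve when it is scarce. Snf3 and Rgt2 resemble transporters but act as receptors: they signal external glucose, which leads to degradation of Mth1 and Std1 and so relieves repression of HXT genes by Rgt1. HXT5 is known for expression in slowly growing or stressed cells, largely apart from that pathway.

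The transporter genes lie partly in clusters. In the order of genes in the R64 table, HXT7 and HXT6 are immediate neighbours on chromosome IV, and 1 gene (YDR344C) separates HXT6 from HXT3. On chromosome VIII, HXT1 and HXT5 are neighbours, and AHT1 lies between HXT4 and HXT1. HXT6 and HXT7 are near-identical copies, so the signals of their 2 probes cannot be taken as independent. Their joint value over both probes is given first, and counts of members are given with both genes and with the pair as 1 signal. The other members are more distantly related, and how far their probes share signal was not tested.

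The set was compared in bdf1Δ+HAL2 over bdf1Δ on 2 arrays with exchanged dyes, in bdf1Δhda1Δ over bdf1Δ on 2 such arrays, and in bdf1Δ over W303 on 1 array. On that single array bdf1Δ was in Cy5 and W303 in Cy3, so that dye and strain cannot be told apart there. Per the labels an exchanged pair repeats the same samples, so that each comparison holds 1 replicate and no p-value was computed. Values are log2 ratios after global loess, so that each is relative to spots of like intensity on the array. Each error is an SD between 2 arrays or between 3 repeat spots of 1 array. Both cover technical variation only. A gene is said to have risen or fallen when it passed 2-fold in that direction on each array, which for the exchanged pairs is the rule of the labels. For bdf1Δ over W303 these words rest on 1 array, a looser rule that the labels do not state. Measured genes are those with 2 or 3 spots, of 3, that the image software found and that exceeded background in either channel. On these terms 8 members were measured in bdf1Δ+HAL2, 7 in bdf1Δhda1Δ and 8 in bdf1Δ over W303, out of 4266, 2074 and 3688 genes. The SD between arrays had a median of 0.14 over genes in the bdf1Δ+HAL2 pair and of 0.08 in the bdf1Δhda1Δ pair. Of the targeted genes, HAL2 stood at 3.73 ± 0.15 in bdf1Δ+HAL2. HDA1 had 0 and 0 of 3 spots above background in bdf1Δhda1Δ, against 0 and 2 of 3 in bdf1Δ, on arrays 1 and 2, and so hardly checks that label. BDF1 exceeded background in 0 of 3 spots of bdf1Δ and 3 of 3 of W303, yet its ratio was only −0.80 ± 0.21 on the single array, short of 2-fold, and −1.01 by print-tip loess.

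In bdf1Δ+HAL2, HXT2 (YMR011W) was 2.79-fold lower than in bdf1Δ and was the only member past 2-fold. The other high-affinity genes and the low-affinity HXT3 stood below 0 by smaller amounts on both arrays. SNF3 lay near the median gene, and HXT1 differed in sign between the arrays. Of the 8 measured members, 1 fell and 0 rose, beside 1.03% of all measured genes lower and 0.445% higher. The members had a median of −0.56, with 7 of 8 below 0, against a median of 0.00 over all genes, of which 49.3% were below 0. With HXT6 and HXT7 as 1 signal, 1 of 7 fell and the median was −0.48.

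HXT2 gave net intensities, the spot median less the local background, of 5167.5 in bdf1Δ+HAL2 against 11930 in bdf1Δ on array 1. On array 2 they were 3490 in bdf1Δ+HAL2 and 12651 in bdf1Δ. The bdf1Δ+HAL2 value was thus the lower on both arrays, with either dye. The log2 ratios were −1.43 and −1.53 on arrays 1 and 2, or −1.48 ± 0.07. HXT2 ranked 13 from the lowest among 4266 genes. With a separate loess curve for every printing block (print-tip loess), HXT2 stood at −1.60. The authors' deposited table gave ratios of 0.350 and 0.359 for it.

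HXT6 (YDR343C) and HXT7 (YDR342C), high-affinity carriers, had nearly the same ratios. HXT6 gave net intensities of 7650 and 3942.5 in bdf1Δ+HAL2, against 11050 and 8459.5 in bdf1Δ, on arrays 1 and 2. HXT7 gave 6711 and 3944.5 in bdf1Δ+HAL2, against 10245 and 8920 in bdf1Δ. Both probes were dimmer in bdf1Δ+HAL2 on each array. Read as a single signal over 6 spots, they stood at −0.84 and −0.83 on the 2 arrays, a mean of −0.83 ± 0.01, which is 1.78-fold and within the 2-fold rule. Apart, HXT6 had −0.78 ± 0.01 and HXT7 −0.89 ± 0.03. HXT4 (YHR092C), the remaining high-affinity gene, stood at −0.51 and −0.44, and by print-tip loess at −0.29 and −0.46. Each of these values exceeded the SD between its own arrays, but that SD holds no variation between cultures.

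Of the low-affinity genes, HXT3 (YDR345C) had net intensities of 8870 and 5255 in bdf1Δ+HAL2 and of 11412 and 10298 in bdf1Δ. Its ratios were −0.59 and −0.70 by global loess, which repeated closely, and −0.28 and −0.79 by print-tip loess, which did not. HXT1 (YHR094C), which is brought on by high glucose and by osmotic stress, gave 16258 and 11703 in bdf1Δ+HAL2 against 14278 and 14444 in bdf1Δ. Its ratios of −0.07 and 0.38 differed in sign between the arrays, and their mean of 0.15 ± 0.31 did not exceed the spread. HXT5 (YHR096C) likewise differed between arrays, at −0.08 and −0.64. The sensor gene SNF3 (YDL194W) stood at −0.04 and −0.13, with net intensities of 927.5 and 623.5 in bdf1Δ+HAL2 against 808 and 774.5 in bdf1Δ.

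**Figure D1:**
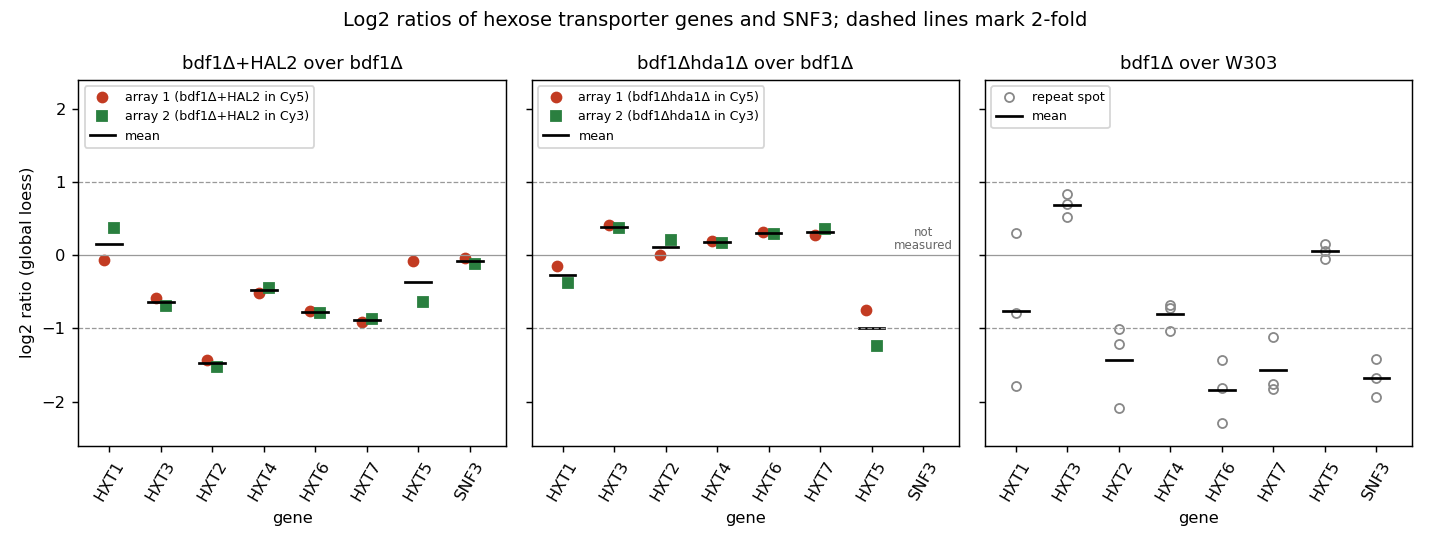
Log2 ratio after global loess (vertical axis) of the measured members (horizontal axis) in 3 strain comparisons. Circles and squares are the 2 dye-exchanged arrays, open circles the 3 repeat spots of the single array, black bars the means and dashed lines 2-fold. HXT2 lies at −1.43 and −1.53 in bdf1Δ+HAL2, HXT5 at −0.75 and −1.23 in bdf1Δhda1Δ, and the repeat spots of HXT1 in bdf1Δ over W303 run from 0.31 to −1.78.

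In bdf1Δhda1Δ no member passed 2-fold on both arrays, and the member farthest from 0 was HXT5, lower by 1.99-fold on average. The high-affinity genes and HXT3 stood slightly above 0, and HXT1 slightly below. Of 7 measured members 0 rose and 0 fell, beside 1.06% of all measured genes higher and 0.627% lower. Their median was 0.18, against 0.01 over all genes. By print-tip loess the members' median was 0.01 and that of all genes 0.00. With HXT6 and HXT7 as 1 signal the median of 6 was 0.15 by global and 0.00 by print-tip loess.

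HXT5 gave net intensities of 1627 and 1784.5 in bdf1Δhda1Δ, against 2434 and 5283 in bdf1Δ. It was the dimmer in bdf1Δhda1Δ on each array, although the size differed. The ratios were −0.75 and −1.23, or −0.99 ± 0.34, and by print-tip loess −0.88 and −1.20. Array 2 alone passed 2-fold. HXT5 ranked 16 from the lowest among 2074 genes.

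HXT6 and HXT7 as a single signal stood at 0.30 and 0.32, a mean of 0.31 ± 0.02 or 1.24-fold. HXT6 gave net intensities of 6236 and 6892.5 in bdf1Δhda1Δ against 4380 and 7133 in bdf1Δ, and HXT7 gave 5686 and 7855 in bdf1Δhda1Δ against 4273 and 7407 in bdf1Δ. On array 2 the intensities of the strains lay close together, with bdf1Δhda1Δ the brighter in 2 of the 3 HXT6 spots, and the HXT6 ratio was 0.08 before and 0.29 after normalization. HXT3 stood at 0.41 and 0.37, and by print-tip loess at 0.16 and 0.10. HXT4 stood at 0.20 and 0.17, and by print-tip loess at −0.01 and −0.02, so its direction turned. HXT2, the member that fell in bdf1Δ+HAL2, had 0.00 and 0.22 here, with net intensities of 8421 and 9891.5 in bdf1Δhda1Δ against 7683.5 and 11453.5 in bdf1Δ. HXT1 had −0.14 and −0.38. Over 11 alternatives HXT3, HXT6 and HXT7 stayed above 0 and HXT1 below 0, while HXT2 and HXT4 each went below 0 in 1. The size of these small values moved with the processing, as for HXT3, which ran from 0.13 to 0.59.

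Both comparisons share bdf1Δ as their reference strain, and no test sets them against each other. Side by side, in bdf1Δ+HAL2 and then bdf1Δhda1Δ, HXT2 stood at −1.48 and 0.11, and the HXT6 and HXT7 signal at −0.83 and 0.31. In the same order HXT3 stood at −0.64 and 0.39 and HXT5 at −0.36 and −0.99. HXT4 had −0.476 and 0.181, and HXT1 0.154 and −0.263. By print-tip loess the values were −1.603 and 0.007 for HXT2, and −0.807 and 0.280 for the HXT6 and HXT7 signal. They were −0.531 and 0.130 for HXT3, −0.311 and −1.038 for HXT5, −0.375 and −0.012 for HXT4, and 0.062 and −0.137 for HXT1.

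**Figure D2:**
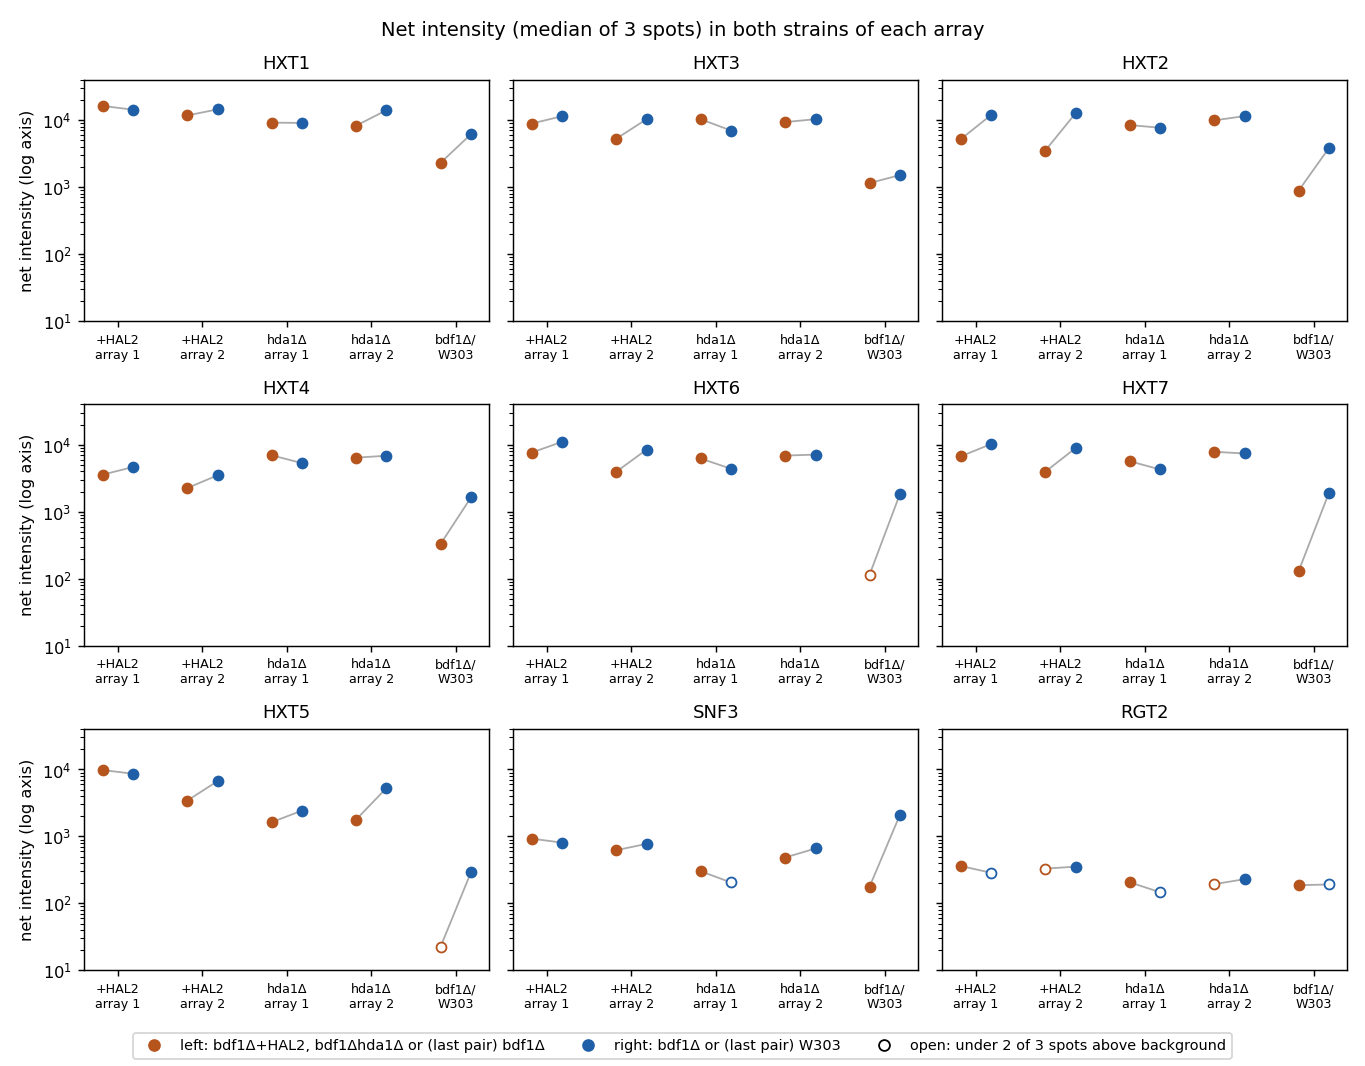
Net intensity on a log axis (median of 3 spots less local background) of 9 members, 1 panel per gene, with the 5 arrays along the horizontal axis. In each pair the left point is bdf1Δ+HAL2, bdf1Δhda1Δ or, in the last pair, bdf1Δ, and the right point is bdf1Δ or, in the last pair, W303. Open points had fewer than 2 of 3 spots above background. HXT2 falls to 5167.5 and 3490 in bdf1Δ+HAL2, against 11930 and 12651 in bdf1Δ.

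In bdf1Δ over W303 the HXT6 and HXT7 signal fell, at −1.70 by global loess and −1.53 by print-tip loess. HXT2 and SNF3 fell by global loess only, and HXT4 by print-tip loess only. HXT1, HXT3 and HXT5 did not pass 2-fold by either. By global loess 4 of 8 measured members fell and 0 rose, where 18.4% of all measured genes were lower and 15.9% higher. By print-tip loess 3 fell and 0 rose, where 6.18% of all genes were lower and 5.94% higher. These counts hold HXT6 and HXT7 as 2 genes. With the pair as 1 signal, 3 of 7 fell by global loess and 2 of 7 by print-tip loess. The median of the members was −1.12 by global and −0.62 by print-tip loess, against 0.00 and −0.01 over all genes, and with the pair as 1 signal it was −0.81 by global and −0.61 by print-tip loess. When the spread of ratios was scaled to that of the other arrays, none of these members passed 2-fold.

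On this array, 36.9% of gene spots exceeded background in the bdf1Δ channel and 91.2% in the W303 channel. Before normalization the median log2 ratio over genes was −1.84, so that the raw intensities of most genes were lower in bdf1Δ and their distance alone shows no difference between the strains. The share of the variance of ratios that lay between the 48 printing blocks was 35.8%, against 3.18% to 10.7% on the other arrays. The median log2 ratio in the block of a member ran from −0.71 (HXT5) through 1.22 (HXT3) to 1.44 (RGT2). The part of position in each member's ratio was not tested, and print-tip values are given beside the global ones.

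HXT6 gave net intensities of 162, 115 and 56.5 in bdf1Δ, against 1738, 1849.5 and 1852 in W303, over its 3 spots. The bdf1Δ channel exceeded background in 1 of them. Its ratio was −1.84 ± 0.43 by global loess (−1.12 by print-tip loess). With most bdf1Δ spots not above background, these are estimates, and scaling the spread of ratios to that of the other arrays gave −0.61. HXT7 gave 305.5, 129.5 and 124 in bdf1Δ, against 1961.5, 1893 and 1935 in W303. All 3 spots exceeded background in both strains, and the ratio was −1.57 ± 0.39 (−1.93 by print-tip loess). Before normalization HXT6 stood at −3.48 and HXT7 at −3.08, both below the median gene of the array.

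HXT2 gave 333, 959.5 and 884 in bdf1Δ, against 3603, 3839 and 4120 in W303, a ratio of −1.44 ± 0.57 (−0.61 by print-tip loess). HXT4 gave 409.5, 209.5 and 330 in bdf1Δ, against 1772, 1579.5 and 1633.5 in W303, a ratio of −0.81 ± 0.20 (−1.21 by print-tip loess). For both genes, whether 2-fold was passed depended on how the array was normalized. The same holds for SNF3, the sensor of low glucose, with 131, 178 and 234 in bdf1Δ against 2129.5, 2115 and 2052 in W303. It had −1.67 ± 0.26 by global and −0.63 by print-tip loess.

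HXT3 turned direction with the normalization, and HXT1 came to near 0 by print-tip loess. HXT3 intensities were 1147.5, 1191 and 1082.5 in bdf1Δ against 1508.5, 1419 and 1617 in W303, and the ratio was 0.69 ± 0.16 by global but −0.46 by print-tip loess. The 3 spots of HXT1 gave 4937, 2301 and 932 in bdf1Δ against 5961, 6618 and 6154 in W303. The bdf1Δ values spread widely while the W303 values lay close together, and the ratio of −0.76 ± 1.05 (0.01 by print-tip loess) shows no difference beyond the spread of spots. HXT5 exceeded background in 0 of 3 spots of bdf1Δ and in 3 of W303, at median net intensities of 22.5 in bdf1Δ and 292 in W303. Its ratio of 0.06 ± 0.11 therefore sets a channel not above background against a dim one, and no bound above 1 could be given. On the other 4 arrays HXT5 exceeded background in all 3 spots of bdf1Δ.

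**Figure D3:**
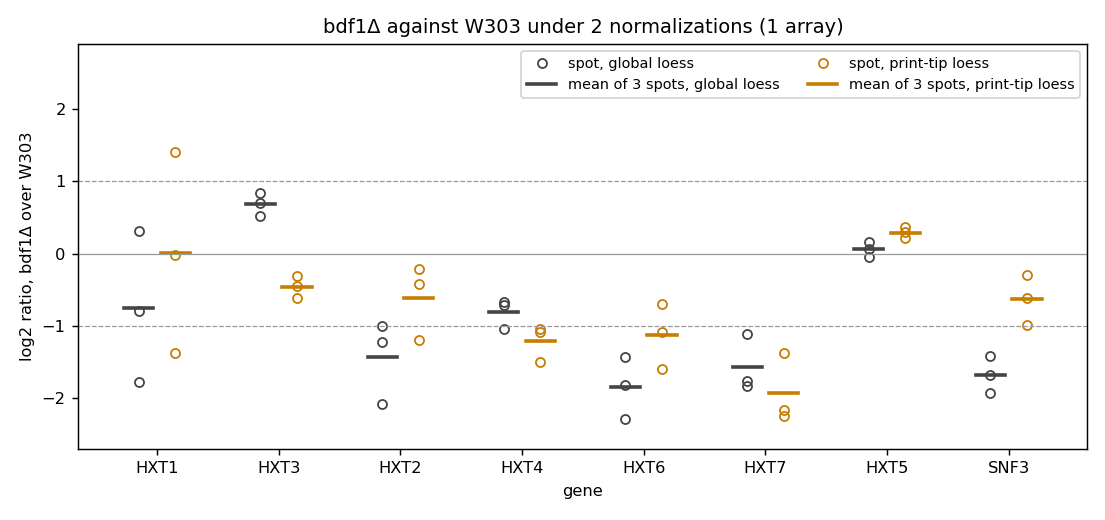
Log2 ratio of bdf1Δ over W303 (vertical axis) for the measured members (horizontal axis) on the single array. Each circle is 1 of 3 repeat spots and each bar their mean, after global loess (grey) and print-tip loess (orange), and dashed lines mark 2-fold. HXT6 (−1.84 and −1.12) and HXT7 (−1.57 and −1.93) lie past 2-fold under both, and HXT3 (0.69 and −0.46) changes side.

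The other sensor, RGT2 (YDL138W), which responds to high glucose, and GAL2 (YLR081W), the galactose permease that also carries glucose, were measured in no comparison. The image software found 0 spots of GAL2 on any array, and GAL2 exceeded background only in 2 spots of W303. Its median net intensities ran from −166 to 76. For RGT2 the software found 1 spot in all. RGT2 gave net intensities of 362 and 331 in bdf1Δ+HAL2 against 287 and 354 in bdf1Δ, 207 and 194 in bdf1Δhda1Δ against 147 and 230 in bdf1Δ, and 187 in bdf1Δ against 192 in W303. RGT2 was dim, and with fewer than 2 of its spots found on any array, no ratio was given and no difference is read from these levels. SNF3 was unmeasured in bdf1Δhda1Δ, where none of its spots was found, at 302.5 and 484.5 in bdf1Δhda1Δ against 205.5 and 661.5 in bdf1Δ.

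The nearest genes in ratio over the 5 arrays were sought for each of HXT1 to HXT7, by Euclidean distance among the 1929 genes measured in all comparisons. HXT6 and HXT7 were each nearest to the other, at a distance of 0.33, where the median distance of all genes from HXT6 was 2.16. Their probes cannot be taken as independent, so this nearness is no separate result. Next to HXT6 came HBT1 (0.47) and TUF1 (0.59), and next to HXT7 came RCR1 (0.58) and HBT1 (0.59). The nearest to HXT2 were STF2 (0.67), SPG4 (0.69) and ISF1 (0.71), which stood at −1.28, −1.39 and −1.43 in bdf1Δ+HAL2. For HXT5 they were YLR252W (0.61), SDH1 (0.65) and OM45 (0.72), for HXT3 ASH1 (0.20), YPL088W (0.26) and SUR2 (0.39), for HXT4 YNL058C (0.25), YDR098C-A (0.28) and PHM8 (0.30), and for HXT1 TRM3 (0.14), RPS1A (0.19) and MSS4 (0.20). Since the single array of bdf1Δ over W303 has the widest ratios, it weighs most in these distances. The distances used global loess values only. On that array the HXT1 and HXT3 ratios changed with the normalization, and HXT5 was not above background in bdf1Δ. Whether the same neighbours would be found by print-tip loess was not tested.

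Around the members, 57 other genes of hexose transport and glucose signalling were read in 8 lists. In bdf1Δ+HAL2, 34 of them were measured and 0 passed 2-fold in either direction, beside 0.445% of all genes higher and 1.03% lower, with a median of −0.04. Among the enzymes that phosphorylate hexoses after uptake, HXK1 stood at −0.98 ± 0.34, GLK1 at −0.51 ± 0.13 and HXK2 at 0.38 ± 0.08. MTH1, the glucose-destabilised corepressor of HXT genes, stood at −0.73 and −0.94 on the 2 arrays, its partner STD1 at −0.03 ± 0.16 and the repressor RGT1 at −0.57 ± 0.13. ITR1, a myo-inositol transporter of the same superfamily, had 1.12 and 0.97, past 2-fold on array 1 alone. Genes of other lists lay as low: the endocytosis adaptor gene CSR2 stood at −0.88 ± 0.12 and GPA2, of the Gpr1 glucose sensing list, at −0.87 ± 0.12. Of the 34 genes, 19 lay below 0 and 15 above. HXK1, GLK1, RGT1, ITR1, CSR2 and GPA2 were chosen after their values were seen. The Snf1 kinase and Mig1 repressor list, 13 measured of 15, lay between −0.27 and 0.47.

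In bdf1Δhda1Δ, 20 of the 57 genes were measured, 0 rose and 1 fell, beside 1.06% of all genes higher and 0.627% lower. This was STL1, a glycerol symporter of the sugar transporter family that is induced by osmotic stress. STL1 gave net intensities of 520 and 604 in bdf1Δhda1Δ against 1198 and 1655 in bdf1Δ, and its ratio was −1.16 ± 0.15. In bdf1Δ+HAL2 it stood at −0.52 ± 0.31. MTH1 and STD1 stood at −0.11 ± 0.26 and 0.34 ± 0.24 in bdf1Δhda1Δ, and HXK2 at 0.21 ± 0.05.

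In bdf1Δ over W303, 33 were measured, of which 5 rose and 2 fell by global loess, beside 15.9% of all genes higher and 18.4% lower. Neither count stands above the share of all genes. With print-tip values second, those that rose were STD1 (1.42 and 0.84), the Snf1 β-subunit gene GAL83 (1.07 and 0.00), the Snf1-activating kinase gene ELM1 (1.52 and 0.96), RGS2 (1.66 and 0.96), a regulator of the Gpr1 glucose receptor's G protein, and GAL80 (1.31 and 0.26), the inhibitor of Gal4. Those that fell were HXK2 (−2.25 and −0.38) and MTH1 (−1.18 and 0.35). By print-tip loess 0 of these 33 passed 2-fold, and MTH1 turned direction. MTH1 exceeded background in 1 of 3 spots of bdf1Δ, at a median net intensity of 49 in bdf1Δ against 930.5 in W303. The remaining transporter genes HXT8 to HXT17 were mostly dim. HXT12 alone of these 10 was measured, in bdf1Δ over W303 only, at −0.02 (0.38 by print-tip loess), with bdf1Δ not well above background. HXT16 and HXT17 had fewer than 2 of 3 spots above background in every channel of every array.

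**Figure D4:**
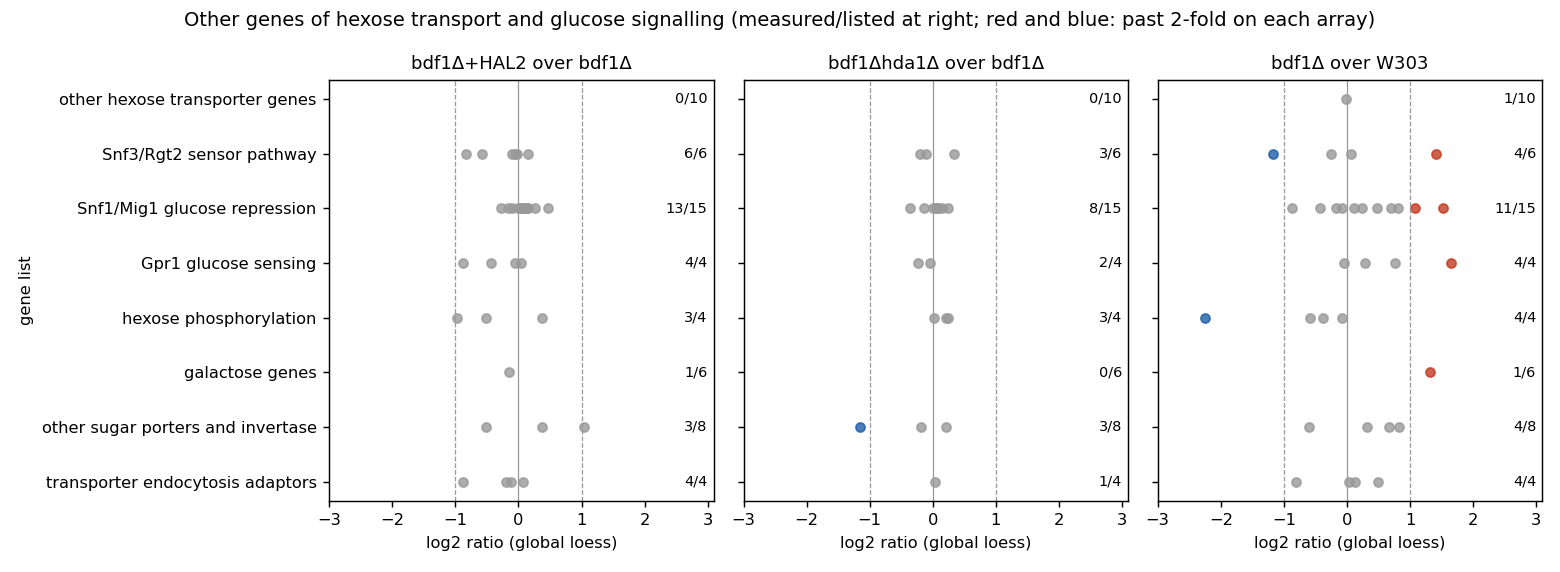
Log2 ratio after global loess (horizontal axis) of 57 other genes of hexose transport and glucose signalling in 8 lists (vertical axis), for each of 3 comparisons. Each point is a gene, red where it rose and blue where it fell past 2-fold on each array, and the figures at the right give genes measured of genes listed. STL1 (−1.16) is the sole coloured point in bdf1Δhda1Δ, and none is coloured in bdf1Δ+HAL2, where ITR1 at 1.05 passed 2-fold on 1 of its arrays.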

How the data were processed

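Per the file headers, each deposited scanner file gives red and green intensity per spot with local background, and a flag score. The flag was read as found or not found. The authors also deposited 1 linear ratio for each probe and array, which ran as test over reference strain on all 5 arrays (Pearson r from 0.824 to 0.953 with the scanner ratios across genes). Its centring is not stated. The sources used here do not name the image software or a genome build.

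Spot medians were corrected by normexp (offset 50) and normalized by global loess with weight 0 for control and unfound spots (limma 3.58.1, R 4.3.3). Ratios were turned where the test strain was in Cy3. Used spots were found and rose over local background by 2 background SDs in 1 or both channels, and a gene needed 2 used spots of 3 on each array. The results are log2 ratios, computed here from the deposited intensities. Later steps used Python 3.11.15, pandas 2.3.3 and matplotlib 3.10.9. The steps were tested on simulated data of 2 dye-exchanged arrays, with bright genes changed well past 2-fold and no effect of printing block. That test does not cover the single array of bdf1Δ over W303 or changes near 2-fold. Of 6388 probe IDs, 5849 matched the R64 gene table. A bound on the fold of HXT5 used channel levels after loess and Aquantile scaling.

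The members and lists were chosen with earlier results of these data known. All 10 members were named. Other list genes were named when past 2-fold in at least 1 comparison, except where stated. The number of arrays limits the precision. Alternatives were print-tip loess, median centring, other background corrections, spot filters and averages, scale normalization between arrays, the authors' ratios, and leaving out an array. Counting HXT6 and HXT7 as 1 signal was added after seeing the data. No sequences of these genes were used here.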

Additional observations from a re-analysis of the deposited data

How the results depend on the processing

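In bdf1Δ+HAL2 the fall of HXT2 held under each of 11 alternatives, from −1.71 to −1.43, and no other member was called. The members' median became −0.45 by print-tip loess, −0.65 by scale normalization between arrays, and −0.67 and −0.55 without array 1 or array 2. In bdf1Δhda1Δ the count of members lower became 1 (HXT5) by scale normalization and without array 1, and stayed 0 without array 2. The median became 0.007 by print-tip loess, 0.14 by median centring, 0.05 with no filter on spots, 0.20 with the median of repeat spots, 0.27 by scale normalization, 0.145 with HXT6 and HXT7 as 1 signal (chosen after seeing the data) and 0.24 with the authors' deposited ratio, and lay between 0.20 and 0.22 without 1 array. In bdf1Δ over W303 the members' median became −0.62 by print-tip loess, −0.49 by median centring, −0.78 with no filter on spots, −0.37 by scale normalization and −3.05 with the authors' ratio, whose column has a median log2 of −2.36. Members higher became 1 (HXT3) by median centring and 2 (GAL2 and RGT2, both near background) with no filter, and members lower became 0 by scale normalization. With the authors' ratio HXT2, HXT4, HXT5, HXT6, HXT7 and SNF3 were lower, where 2873 of all 3681 genes were. HXT2 also lost its call by median centring, and HXT5 and HXT6 were not measured where both channels had to exceed background. MTH1 turned to 0.35 and GAL83 to 0.00 (−0.002) by print-tip loess, and with the authors' ratio GAL83, RGS2 and GAL80 turned to −0.83, −0.42 and −0.047. The cause was not tested. Over all genes, bdf1Δ over W303 gave 587 higher and 679 lower, 219 and 228 by print-tip loess, 2 and 28 by scale normalization, 31 and 2873 with the authors' ratio, 1564 and 681 with no filter and 559 and 280 with both channels above background. In bdf1Δ+HAL2, against 19 higher and 44 lower, scale normalization gave 32 and 63, and leaving out an array 35 or 36 higher and 60 or 70 lower. In bdf1Δhda1Δ, against 22 and 13, scale normalization gave 45 and 36. No paired analysis was possible because each comparison holds 1 replicate and no test was made.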

Other observations

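On the 4 arrays with exchanged dyes, more gene spots exceeded background in Cy5 than in Cy3. The shares ran from 75.7% to 90.6% in Cy5 and from 42.8% to 70.6% in Cy3. The dim sensor gene RGT2 followed this split of all genes. On each of these arrays, all 3 RGT2 spots exceeded background in the Cy5 channel. In Cy3, 1 did so on array 2 of the bdf1Δ+HAL2 pair and 0 on the other arrays. SNF3, the other sensor gene, exceeded background in all 3 spots of both strains on both arrays of the bdf1Δ+HAL2 pair, and in 0 spots of bdf1Δ, in Cy3, on array 1 of the bdf1Δhda1Δ pair.

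The galactose list beside GAL2 was dim as well. GAL80 was its single measured gene, in bdf1Δ+HAL2 (−0.14 ± 0.13) and in bdf1Δ over W303, while GAL1, GAL3, GAL4, GAL7 and GAL10 were measured in no comparison.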
